A study of Homo sapiens with 4 samples.

Results

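The 246 zinc finger genes of chromosome 19 taken here were the protein-coding genes whose symbol is ZNF followed by a number, out of 19970 protein-coding genes annotated by GENCODE 44 on the autosomes and X of hg38. They were compared with 262 ZNF genes of other chromosomes and with the other 1230 protein-coding genes of chromosome 19. MTF-1 was profiled by CUT&RUN, in which an antibody tethers a nuclease to a chromatin protein and the released DNA is sequenced, in MDA-MB-231, a human breast cancer cell line. There were 2 control libraries from untreated cells and 2 cadmium libraries from cells grown over many passages in cadmium sulfate and kept at 10 µM. All libraries came from the same line, and the cadmium cells were a population selected during long growth, so that exposure and selection cannot be told apart. The reads of the libraries of each condition were merged before peaks were called, so each condition is 1 list of peak positions without any height, score or number of reads. The depth is unknown from the lists, no spread between replicates could be measured and no difference was tested. Intervals of shares given below are 95% Wilson intervals and cover counting error only. Those of median widths come from the ranked widths over genes and do not cover differences between replicates. The control list held 69299 peaks with a median width of 1399 bp over 130 Mb, and the cadmium list held 60130 peaks with a median width of 999 bp over 90.9 Mb, so the cadmium list was shorter and narrower over the whole genome. On chromosome 19 the lists held 2975 and 2925 peaks.

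C2H2 zinc finger genes form the largest family of human transcription factors, and chromosome 19 carries them in tandem clusters that arose by gene duplication. Most encode an amino-terminal KRAB domain and a row of C2H2 zinc fingers, which read DNA. The KRAB domain recruits TRIM28, which brings the histone H3 lysine 9 methyltransferase SETDB1, and many of these proteins silence retroelements. All fingers are usually encoded in a single long 3′ exon, and the 3′ ends of ZNF genes are themselves known sites of histone H3 lysine 9 methylation, to which ZNF274 guides SETDB1. MTF-1 is itself a C2H2 zinc finger protein, which binds metal response elements (MREs) and switches on metallothionein genes when zinc or cadmium is in excess. The labels of the family were borne out by the coding sequences: all 246 genes encoded at least 1 C2H2 finger, 245 encoded at least 3, and the median was 13.0 with a range of 1 to 39.

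Sequences of 5 start sites are given first to show starts with and without a peak. Each is the 250 bases before the RefSeq start on GRCh38.p14, on the strand of the gene, with every CpG in capitals. ZNF91 (chr19:23395472-23395721, minus strand, 7 CpG) had a peak in both lists and ZNF208 (chr19:22010944-22011193, minus strand, 7 CpG) had a peak in neither, although 220 of the 257 aligned columns of these sequences (85.6%) were identical. ZNF274 (chr19:58182811-58183060, plus strand, 14 CpG) had a peak in both lists, ZNF418 (chr19:57935403-57935652, minus strand, 10 CpG) in the control list only, and ZNF667 (chr19:56477346-56477595, minus strand, 35 CpG) in neither.
ZNF91: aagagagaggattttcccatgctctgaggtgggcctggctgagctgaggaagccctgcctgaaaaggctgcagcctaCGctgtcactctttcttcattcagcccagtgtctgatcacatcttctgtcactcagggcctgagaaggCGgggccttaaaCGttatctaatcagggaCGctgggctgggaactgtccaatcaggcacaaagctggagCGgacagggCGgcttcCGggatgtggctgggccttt
ZNF208: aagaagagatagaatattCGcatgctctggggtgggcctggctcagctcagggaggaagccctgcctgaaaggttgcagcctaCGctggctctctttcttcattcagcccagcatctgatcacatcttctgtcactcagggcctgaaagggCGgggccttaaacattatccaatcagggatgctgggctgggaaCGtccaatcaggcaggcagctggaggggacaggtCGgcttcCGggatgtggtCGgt
ZNF274: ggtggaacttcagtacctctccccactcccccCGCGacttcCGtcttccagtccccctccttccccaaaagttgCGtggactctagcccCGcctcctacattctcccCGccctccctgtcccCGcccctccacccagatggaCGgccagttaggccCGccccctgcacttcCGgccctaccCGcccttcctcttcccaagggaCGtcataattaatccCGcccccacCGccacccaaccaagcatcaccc
ZNF418: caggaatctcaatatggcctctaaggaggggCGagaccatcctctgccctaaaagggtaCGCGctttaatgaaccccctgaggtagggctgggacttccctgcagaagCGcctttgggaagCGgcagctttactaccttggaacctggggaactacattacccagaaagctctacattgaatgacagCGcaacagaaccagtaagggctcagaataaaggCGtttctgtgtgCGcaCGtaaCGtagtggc
ZNF667: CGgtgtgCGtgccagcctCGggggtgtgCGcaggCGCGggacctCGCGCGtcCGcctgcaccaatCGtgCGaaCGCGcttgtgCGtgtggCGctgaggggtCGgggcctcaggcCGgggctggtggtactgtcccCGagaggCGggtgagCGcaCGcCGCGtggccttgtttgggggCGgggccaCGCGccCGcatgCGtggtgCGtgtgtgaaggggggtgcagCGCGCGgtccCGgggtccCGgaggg
The other pairs among these starts were 41.7% to 47.8% identical. Neither likeness in sequence nor the number of CpG in these windows followed the presence of a peak in the sequences shown. These 5 starts were picked to show both classes, so they cannot tell whether sequence or CpG goes with a peak across the family.

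MTF-1 peaks lay at the starts of most ZNF genes of chromosome 19 in both conditions. A peak within 1 kb of an annotated transcript start, called a start-site peak here, was present in both lists at 216 of the 246 genes (87.8%, 83.1% to 91.3%), beside 70.2% of all protein-coding genes. In the control list 218 genes (88.6%) had such a peak, beside 73.4% of all genes, and in the cadmium list 216 (87.8%), beside 71.7%. The ZNF genes of other chromosomes had nearly the same share, 229 of 262 in both lists (87.4%, 82.8% to 90.9%), whereas the other genes of chromosome 19 had one in both lists at 72.8% (70.3% to 75.3%). The share on chromosome 19 thus lay within the interval of the ZNF genes elsewhere and above that of the other genes of the same chromosome. With 3 kb in place of 1 kb around starts the counts were again 218 and 216. With only peaks of at least 1000 bp counted they fell to 200 and 172, so the cadmium share in particular rested partly on narrow peaks. Many of these genes lie close to another start, and 117 of the 246 had the start of another gene within 1 kb. No peak was found at 13 of these 117 genes (11.1%) and at 15 of the 129 without a close neighbor (11.6%). The 237 distinct start-site peaks of the control list included 14 that reached the starts of at least 2 ZNF genes.

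Presence or absence at starts differed between the lists at 2 ZNF genes when every peak was counted. ZNF814 and ZNF418, which lie near each other in the most telomeric cluster, had a start-site peak in the control list only (0.813%, 0.223% to 2.92%), beside 3.21% of all genes. No ZNF gene of chromosome 19 had one in the cadmium list only, which allows a share of up to 1.54%, beside 1.5% of all genes. At ZNF418 (chr19:57921882-57935402) the control peak of 1799 bp at chr19:57933801-57935599 covered the canonical start, and the nearest cadmium peak lay 8795 bp from any of its starts. At ZNF814 (chr19:57848731-57889074) the control peak of 2399 bp at chr19:57872401-57874799 lay by a start inside the gene, 742 bp away, and covered 82.2% of its zinc finger exon. The nearest cadmium peak to a ZNF814 start was 6290 bp away. With 500 bp around starts, or with 1 start per gene, ZNF418 was the only gene with a start-site peak in the control list alone. With only peaks of at least 1000 bp counted, 30 genes had one in the control list alone and 2 in the cadmium list alone, so the small number of differing genes depended on counting narrow peaks.

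Peaks at most ZNF starts covered the start, reached further downstream than upstream and were narrower in the cadmium list. The canonical start was covered in 87.0% of the 246 genes in the control list and in 86.2% in the cadmium list, beside 66.5% and 64.5% of all genes. At 1 kb upstream the shares were 37.8% and 22.0%, and at 1 kb downstream 54.9% and 33.3%. Where the start lay inside its peak, the peak reached a median of 865 bp upstream and 1138 bp downstream in the control list, and 700 and 866 bp in the cadmium list. It extended further into the gene than away from it at 141 of 214 genes in the control list and at 139 of 212 in the cadmium list.

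**Figure D1:**
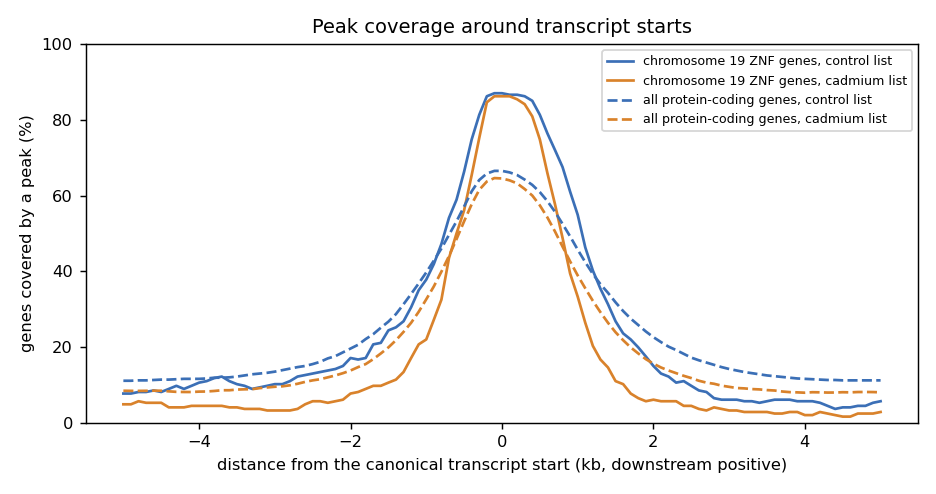
Share of genes covered by a peak (y axis, %) at each distance from the canonical transcript start (x axis, kb, downstream positive), for chromosome 19 ZNF genes (solid lines) and all protein-coding genes (dashed lines) in the control list (blue) and the cadmium list (orange). At the start the solid lines reach 87.0% and 86.2%, and from about 1 kb outward the cadmium line lies below the control line.

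The median width of the widest start-site peak of a ZNF gene was 2199 bp in the control list (95% interval of the median 1999 to 2399 bp, 218 genes) and 1699 bp in the cadmium list (1599 to 1799 bp, 216 genes). These peaks were narrower than those of all genes, with medians of 2799 and 2199 bp, and than those of the other genes of chromosome 19, with 3999 and 2999 bp. At ZNF genes of other chromosomes the medians were 2199 bp (1999 to 2599 bp) and 1999 bp (1799 to 2199 bp). The control width was thus not particular to chromosome 19. Of the 216 ZNF genes of chromosome 19 with a peak in both lists, 156 (72.2%) had a narrower widest peak in the cadmium list, 34 an equal and 26 a wider one. Over all genes 62.2% were narrower, over the ZNF genes of other chromosomes 59.0%, and over the other genes of chromosome 19 73.3%. The share of narrower peaks at the ZNF genes was therefore close to that of their chromosome. The widest peak was taken in each list on its own. The peaks compared could therefore lie apart, as at ZNF699, ZNF846 and ZNF331, and the counts are not changes of a shared peak throughout.

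**Figure D2:**
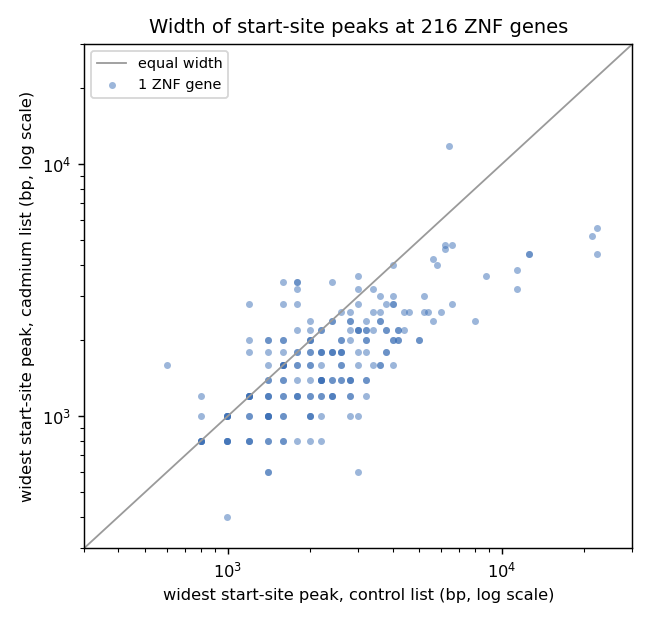
Width of the widest start-site peak of each of 216 ZNF genes in the control list (x axis, bp, log scale) and in the cadmium list (y axis, bp, log scale), with the line of equal width; darker points are several genes with the same widths. Most points lie below the line (156 of 216), and ZNF554 stands above it with 6399 and 11799 bp.

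The widest control peak at a ZNF start, 22199 bp at chr19:58436001-58458199, spanned the starts of both ZNF132 and ZNF324B. The widest cadmium peaks at these starts were separate, with 4399 bp at ZNF132 and 5599 bp at ZNF324B. ZNF584, their neighbor, had a control peak of 21399 bp and a cadmium peak of 5199 bp. ZNF580 followed with 12599 bp in the control list and 4399 bp in the cadmium list, and the same control peak covered the start of ZNF581. These broad control peaks thus had shorter counterparts in the cadmium list. ZNF554 differed in the other direction, with 6399 bp in the control list and 11799 bp at chr19:2808801-2820599, the widest cadmium peak at a ZNF start. ZNF792 had 6199 bp in the control list and 4799 bp in the cadmium list. TRIM28, the corepressor of KRAB proteins, also lies near the end of chromosome 19 and had a start-site peak of 20599 bp in the control list and 9799 bp in the cadmium list.

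Of 14 genes of known role in the family, 10 (71.4%) had a start-site peak in both lists, beside 87.8% of all 246 ZNF genes and 70.2% of all protein-coding genes. ZNF274, which guides SETDB1 to the 3′ ends of other ZNF genes, had a peak of 5599 bp in the control list and 2399 bp in the cadmium list over the start printed above. ZNF91, which represses SVA retrotransposons, had the same 1199 bp peak in both lists at chr19:23394601-23395799. ZNF93, a repressor of LINE-1 elements, had 2599 and 1799 bp. ZNF224, a repressor first described at the aldolase A gene, had 4199 and 2199 bp, and ZNF568, whose mouse homolog silences a placental transcript of Igf2, had 2199 and 1799 bp. At ZNF675, an inhibitor of TRAF6 signaling, the start-site peaks were 999 bp wide in each list, and 1 other peak in the gene body was lost and 1 gained. At ZNF331, an imprinted gene with several starts, the widest start-site peak was 1999 bp in the control list and 2399 bp at another start in the cadmium list.

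ZNF genes known for promoter methylation in tumors fell into both classes. ZNF132, ZNF582 and ZNF671 had start-site peaks in both lists, with 1399 bp in the control list and 799 bp in the cadmium list at ZNF582 and 1399 and 999 bp at ZNF671. ZNF154, ZNF382, ZNF471 and ZNF667 had none in either list. The nearest control and cadmium peaks to a start were 17997 and 17797 bp away at ZNF154, 29618 and 30618 bp at ZNF382, 26579 and 27379 bp at ZNF471, and 59136 and 59936 bp at ZNF667. These 4 genes were therefore not close misses of the 1 kb limit. ZNF667 and ZNF471 lie in the same stretch without peaks, chr19:56405200-56537200. DNA methylation was not measured in the data used here.

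All 12 of the listed corepressors of KRAB zinc finger proteins had a start-site peak in both lists, beside 70.2% of all genes. The peaks were narrower in the cadmium list at 7 of the 12 (58.3%, beside 62.2% of all genes), namely TRIM28, ATF7IP (2599 and 1199 bp), CBX3 (9199 and 5999 bp), CBX5 (4399 and 3999 bp), ATRX (1599 and 999 bp), MPHOSPH8 (1599 and 1399 bp) and PPHLN1 (2199 and 1599 bp). They were wider at 4, the methyltransferase gene SETDB1 (1199 and 2599 bp), CBX1 (3399 and 4199 bp), which encodes a heterochromatin protein 1, TASOR (1599 and 1799 bp) of the HUSH complex, and the methyltransferase gene SUV39H1 (2399 and 2599 bp). At MORC2 the width was 1799 bp in both.

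The 28 ZNF genes without a start-site peak in either list (11.4%, 7.99% to 16.0%, beside 25.1% of all genes) were unevenly spread along the chromosome. When genes more than 500 kb apart were put in different clusters, 232 of the 246 genes fell into 10 clusters of at least 5 genes. The cluster from ZNF101 to ZNF254 (chr19:19668796-24129968), next to the centromere, held 37 ZNF genes, of which 10 (27.0%) had no start-site peak. In the cluster from ZNF653 to ZNF791 (chr19:11483427-12640098) all 25 genes had one in both lists, as did all 5 from ZNF554 to ZNF77 and all 5 from ZNF302 to ZNF792. The remaining clusters had 2 or 3 genes each without a peak, or 6.98% to 18.8% of their ZNF genes. None of the 28 came close to the limit, the nearest being ZNF541 with a control peak 10949 bp from a start and ZNF773 with a cadmium peak at 11716 bp. In their bodies, ZNF285, ZNF536 and ZNF541 each had 1 control peak that was lost, that of ZNF285 over its zinc finger exon, and ZNF229 had 1 gained cadmium peak. Without the ZNF101 to ZNF254 cluster, 18 of 209 genes (8.61%) lacked a peak.

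**Figure D3:**
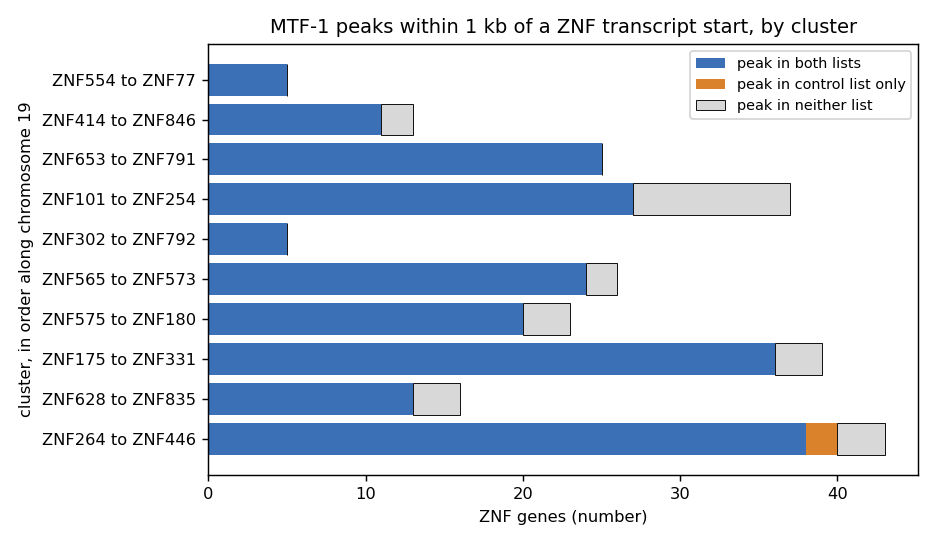
Number of ZNF genes (x axis) in each of the 10 clusters in order along chromosome 19 (y axis), divided into those with a start-site peak in both lists (blue), in the control list only (orange) and in neither (gray). The ZNF101 to ZNF254 bar has the longest gray part, 10 of 37 genes, and the 2 orange genes are in the ZNF264 to ZNF446 cluster.

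The 10 genes without a peak in the ZNF101 to ZNF254 cluster were neighbors. ZNF208, ZNF257, ZNF676, ZNF729, ZNF98, ZNF492, ZNF99, ZNF723, ZNF728 and ZNF730 followed each other with no ZNF gene between them that had a peak, and all lay in a stretch of 1.4 Mb without any peak of either list (chr19:21852400-23249200). The stretch held no unassembled base, and no protein-coding gene other than these 10 lay whole inside it. ZNF724 (chr19:23221599-23250394) reached into it with most of its body, while its start, with a peak in both lists, lay just outside. Of all stretches without peaks, a longer one on chromosome 19 was found only across the centromere. From the start of ZNF492, in its middle, the nearest peak of both lists was 614877 bp away. ZNF729 and ZNF208, with 39 and 36 fingers the genes with the most fingers of the family, lie in it. ZNF91, with 32 fingers, lies just outside it and had a start-site peak in both lists, as had ZNF850 in another cluster with 30 fingers (3199 bp in the control list, 2399 bp in the cadmium list). How uniquely reads could be placed in this stretch of close paralogs was not measured. The other 27 ZNF genes of the cluster had start-site peaks in both lists, with medians of 1399 and 999 bp, the narrowest of any cluster in both lists. The cluster as a whole held 11.7 control peaks and 10.5 cadmium peaks per Mb, against 26.3 to 87.9 and 20.8 to 95.9 in the other clusters.

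The start sites with and without peaks overlapped in base composition in this family. Promoter sequences from 250 bases before to 50 bases after the start were matched for 216 of the 246 genes from RefSeq. The median GC content was 60.0% at genes with a peak in both lists (quartiles 56.3% and 64.3%) and 58.3% at genes with none (55.3% and 64.0%), and the median observed to expected CpG ratio was 0.765 (193 genes) and 0.781 (21 genes). Over all protein-coding genes these classes were far apart, with CpG ratios of 0.834 and 0.303. Inside the ZNF101 to ZNF254 cluster the ratio was low both at genes with a peak (0.435, 24 genes) and at genes without one (0.56, 5 genes), and at the genes without a peak elsewhere it was high (0.888, 16 genes). The core of the metal response element, searched as TGCACNC or TGCGCNC on either strand, was in 41.7% of the ZNF promoters and in 34.9% of all promoters of the same length. It was in 40.4% of the ZNF promoters with a peak in both lists and in 10 of the 21 (47.6%) without one, with 0 of 5 in the ZNF101 to ZNF254 cluster and 10 of 16 (62.5%) elsewhere. Promoters with a peak in that cluster also rarely held it (4.17%). Over all protein-coding genes the core was in 39.0% of promoters with a peak in both lists and in 23.1% of those with none. Among promoters with a peak in both lists the ZNF share was thus close to that of all genes. The AP-1 motif TGACTCA or its reverse complement TGAGTCA was in 5 ZNF promoters (2.31%), beside 3.68% of all promoters. A match describes the letters in the window and shows no binding.

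Away from starts, the 3′ zinc finger exon of ZNF genes of chromosome 19 was covered by MTF-1 peaks to a larger share than the rest of the gene body, and less in the cadmium list than in the control list. By number, 32 of the 92 control peaks away from the starts of all protein-coding genes met such an exon and 60 did not. The zinc finger exon, taken as the last coding exon of the canonical transcript, had a median length of 1529 bp in the ZNF genes, against 162 bp for the last coding exon of all genes. Of all bases of these exons, including those near starts, 14.2% were covered by control peaks and 6.56% by cadmium peaks. For last coding exons of all genes the shares were 12.5% and 8.69%, and for the other genes of chromosome 19 26.4% and 16.4%. The exon carried a peak at 49 genes in the control list (19.9%, beside 14.3% of all genes). In the cadmium list it did at 25 genes (10.2%, beside 11.0%). At the other genes of chromosome 19 the shares were 31.5% and 21.6%. With bases within 1 kb of a start of the gene left out, 45 and 22 of 240 ZNF genes had a covered exon. Over all genes these were 2110 and 1544 of 17337. At 27 of the 246 genes the exon had a peak in the control list only, beside 1111 of 19970 genes (5.56%). Among the other genes of chromosome 19 these were 151 of 1230, and among the ZNF genes elsewhere 18 of 262. At some of the 27, such as ZNF324B and ZNF524, the control peak also reached a start. At 3 genes, ZNF557, ZNF628 and ZNF579, the exon had a peak in the cadmium list only. This was so at 2.26% of all genes, at 30 of the 1230 and at 6 of the 262. Among the ZNF exons neither the share with a control peak nor the covered share of bases rose steadily with length. Both were highest under 1000 bp. This comparison is within the family and does not cover the difference in length from the exons of other genes. A control peak was present at 29.6% of exons under 1000 bp, 15.4% at 1000 to 1499 bp, 22.1% at 1500 to 1999 bp and 18.2% above. The covered shares of bases in the same order were 26.6%, 12.0%, 14.6% and 14.0%. These shares include peaks that also reached a start of the gene. Under 1000 bp this was so at ZNF580, ZNF581, ZNF524, ZNF784 and ZNF446, with control peaks of 3599 to 12599 bp. It was not so at ZNF829, ZNF562 and ZNF653. At 5 genes, ZNF414, ZNF653, ZNF536, ZNF507 and ZNF541, the last coding exon was too short to hold all fingers, and of these only ZNF653 had a peak over it.

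**Figure D4:**
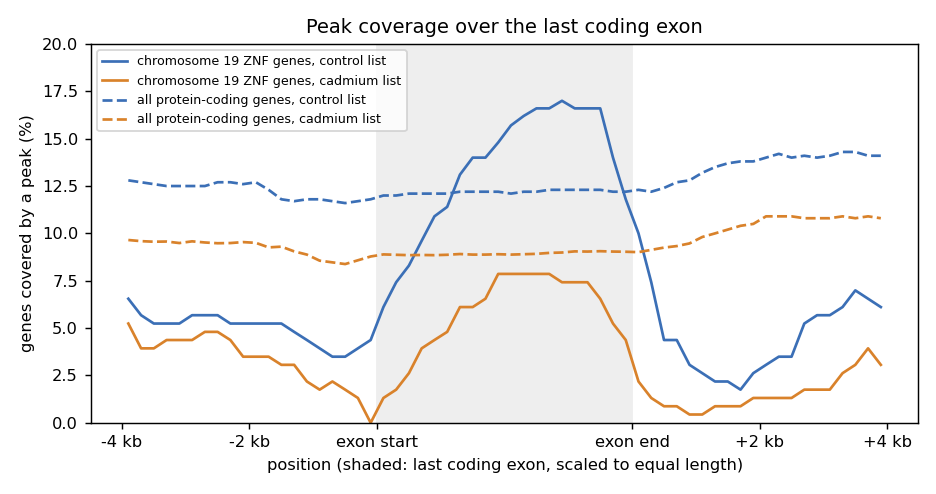
Share of genes covered by a peak (y axis, %) along the last coding exon scaled to equal length (shaded) and 4 kb on either side, for chromosome 19 ZNF genes with more than 1 coding exon (solid lines, 229 genes) and all such protein-coding genes (dashed lines) in the control list (blue) and the cadmium list (orange). The solid lines rise inside the exon to 17.0% and 7.86% and fall on both sides of it, while the dashed lines stay nearly level.

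The coverage followed the exon itself. About 1 kb before the exon 3.93% of the ZNF genes were covered in the control list, inside the exon up to 17.0%, and about 1 kb after it 2.62%. In the cadmium list the shares were 1.75%, 7.86% and 0.437% at the same places. With bases within 1 kb of any start of the gene left out, 13.8% of the zinc finger exon was covered in the control list and 6.14% in the cadmium list, against 3.32% and 1.54% of the rest of the gene body. Higher coverage of the last coding exon than of the whole rest of the body was not particular to these genes. In the control list it was 10.4% against 4.42% of the rest of the body over all genes. At ZNF genes of other chromosomes it was 7.69% against 3.57%, and at other genes of chromosome 19 24.3% against 16.5%. Against the bases close by, the exon stood out less elsewhere. At ZNF genes of other chromosomes 7.26% of genes were covered in the control list about 1 kb before the exon. Inside it up to 10.7% were covered, and about 1 kb after it 9.4%. Over all genes these shares were 11.8%, up to 12.3% and 13.2%. At the ZNF genes of chromosome 19, cadmium coverage was 0.446 times the control coverage over the exon, 0.463 times over the rest of the body and 0.846 times over the start sites. The corresponding ratios over all genes were 0.624, 0.634 and 0.865. The ratio of the zinc finger exon was thus close to that of the rest of the same genes, and the ratio of the start sites was nearer to 1. ZNF genes of other chromosomes had less coverage over the exon, 7.69% in the control list and 4.57% in the cadmium list.

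The sequence of 2 neighboring fingers is given for the exons of ZNF473 and ZNF780B, which had the most covered bases in the control list. The capitals mark the codons of the linker between fingers, which is repeated with little change along such exons. The ZNF473 stretch lies at chr19:50046637-50046801 on the plus strand and the ZNF780B stretch at chr19:40035272-40035436 on the minus strand, both on hg38.
ZNF473: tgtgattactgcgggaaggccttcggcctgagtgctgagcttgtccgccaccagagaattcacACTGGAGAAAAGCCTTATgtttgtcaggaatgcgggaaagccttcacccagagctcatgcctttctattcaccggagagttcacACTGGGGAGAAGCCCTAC
ZNF780B: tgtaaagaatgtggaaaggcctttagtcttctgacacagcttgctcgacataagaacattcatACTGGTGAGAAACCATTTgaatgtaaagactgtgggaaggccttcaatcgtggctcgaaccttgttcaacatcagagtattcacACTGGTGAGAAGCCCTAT
ZNF473, a part of the U7 small nuclear ribonucleoprotein that processes histone transcripts, has 18 fingers, and a control peak of 2399 bp at chr19:50044801-50047199 covered 94.5% of its exon (chr19:50044670-50047056). The cadmium list had no peak there, although the start-site peak of ZNF473 was in both lists (3399 and 1599 bp). ZNF780B, with 21 fingers, had the same peak of 2999 bp in both lists at chr19:40033601-40036599, which covered 98.8% of its exon, 19480 bp from the nearest start. The exon of ZNF132 was covered to 99.4% by a control peak of 4999 bp and to 95.4% by a cadmium peak of 1799 bp, and the exon of ZNF814 to 82.2% in the control list alone. Of these 4 genes, ZNF473 and ZNF814 thus had an exon peak in the control list only, ZNF132 had one in both with a narrower cadmium peak, and ZNF780B had one of equal width in both.

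Of the 332 control peaks over the bodies of the 246 genes, 44 were lost, that is, had no base in common with the cadmium list (13.3%, 10.0% to 17.3%), beside 24.8% of the peaks over the bodies of all genes and 27.9% of all control peaks. With at least 50% of a peak required to overlap 114 were lost, and with only peaks of at least 1000 bp counted 74. By the rule of no shared base, 16.6% were lost at ZNF genes of other chromosomes and 18.1% at other genes of chromosome 19. At transcript starts of protein-coding genes 9 of the 240 peaks of the ZNF genes of chromosome 19 were lost (3.75%). The share was nearly the same at ZNF genes of other chromosomes, 9 of 284 (3.17%). It was 10.4% over all genes and 11.4% over the other genes of chromosome 19. Away from these starts 35 of 92 peaks of the ZNF genes of chromosome 19 were lost (38.0%, 28.8% to 48.3%). This was beside 33.9% of all control peaks away from starts. Over zinc finger exons away from starts 17 of 32 were lost (53.1%, 36.4% to 69.1%), beside 30.2% of the peaks at last coding exons of all genes, 8 of 21 (38.1%) at ZNF genes of other chromosomes and 25 of 91 (27.5%) at other genes of chromosome 19. This share rested on the ZNF653 to ZNF791 cluster, where all 9 such peaks were lost, and was 8 of 23 (34.8%) without it. Peaks near a start of any protein-coding gene, also of another gene, are left out of these counts. With them kept, 10 exons of the cluster had a peak in the control list only and 1, that of ZNF490, in both. The lost share also depended on the rule. With at least 50% of a peak required to overlap 62.5% were counted as lost, beside 57.1% over all genes. ZNF823, ZNF564 and ZNF586 each had 2 lost peaks in the gene body, and other genes, such as ZNF699, had at most 1. Of the 302 cadmium peaks over the gene bodies 10 were gained (3.31%, 1.81% to 5.99%), beside 12.6% over the bodies of all genes and 15.1% of all cadmium peaks, and 1 of 16 over zinc finger exons away from starts (6.25%), beside 16.3% over last coding exons of all genes. The gained peaks were 21 with the 50% rule and 6 with only peaks of at least 1000 bp. By the rule of no shared base, 7.66% were gained at ZNF genes of other chromosomes and 10.5% at other genes of chromosome 19. ZNF627 had 2 gained peaks, of 1199 bp at chr19:11564001-11565199 and 999 bp at chr19:11577401-11578399, and other genes, such as ZNF57, ZNF557 and ZNF266, had at most 1. The gained peak of ZNF557, 599 bp wide, lay over its zinc finger exon and covered 69.3% of it. Few peaks of these gene bodies were gained, and most lost peaks lay away from starts.

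The peaks over zinc finger exons were also unevenly spread over the clusters. In the ZNF653 to ZNF791 cluster 11 of 25 exons had a peak in the control list and 1, that of ZNF490, in the cadmium list, and the covered share of exon bases was 29.6% and 3.41%. The exon peak was in the control list alone at ZNF653, ZNF823, ZNF439, ZNF433, ZNF442, ZNF799, ZNF443, ZNF709, ZNF564 and ZNF791. The exons of ZNF439 and ZNF709 were covered in full in the control list and not at all in the cadmium list, as was the short last coding exon of ZNF653 (175 bp), and the ZNF709 exon was covered by a peak of 2599 bp 19083 bp from the nearest start. All of these 25 genes had a start-site peak in both lists, so the cluster differed between the lists at the 3′ exons and not in the presence of peaks at starts. From ZNF565 to ZNF573 9 of 26 exons had a peak in the control list and 5 in the cadmium list (25.4% and 13.1% of bases). Of the 16 exons from ZNF628 to ZNF835, 3 had a peak in both lists, 2 (ZNF524 and ZNF784) in the control list only and 2 (ZNF628 and ZNF579) in the cadmium list only, and ZNF582 there was covered to 100% and 55.6%. No zinc finger exon had a peak in either list among the 37 genes from ZNF101 to ZNF254 or the 39 genes from ZNF175 to ZNF331. In the last of these clusters 36 genes nevertheless had a start-site peak in both lists. Without the ZNF653 to ZNF791 cluster 12.6% of exon bases were covered in the control list and 6.89% in the cadmium list.

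**Figure D5:**
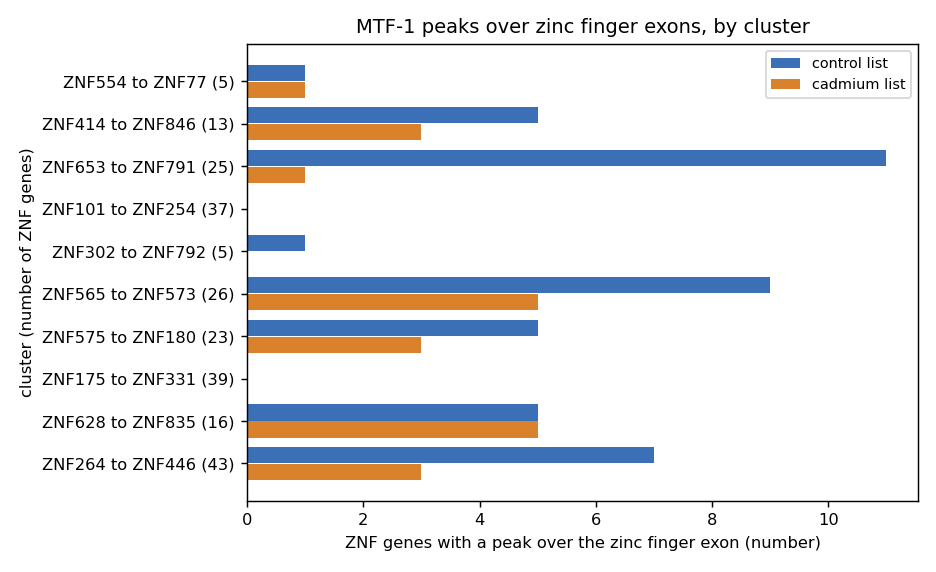
Number of ZNF genes with a peak over the zinc finger exon (x axis) in the control list (blue) and the cadmium list (orange) for each cluster in order along chromosome 19 (y axis, number of ZNF genes in parentheses). The ZNF653 to ZNF791 cluster has 11 and 1, and the ZNF101 to ZNF254 and ZNF175 to ZNF331 clusters have none.

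The genes with and without an exon peak had similar numbers of fingers. The median was 13.5 fingers in the 22 genes with an exon peak in both lists, 13.0 in the 27 with one in the control list only and 12.0 in the 194 with none. Exon peaks were seen from genes with 3 fingers, such as ZNF580, to ZNF814 with 23, whereas ZNF729, ZNF208, ZNF91 and ZNF850, the 4 genes with the most fingers, had none in either list.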

How the data were processed

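CUT&RUN for MTF-1 was performed in MDA-MB-231 cells (2 control and 2 cadmium libraries). Reads were trimmed and mapped to hg38 by the authors with Bowtie2, alignments of each condition were merged, and peaks were called on them with Epic2 at its default settings. The submitters' processing notes name SAMtools 1.8, deepTools and SICER 0.0.50. No control library for the peak calling is given in the sources used here. The deposited positions carry no count or score, and merging leaves no measure of reproducibility.

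Transcript starts, coding exons and gene bodies were taken from GENCODE 44. A start-site peak had any base within 1 kb of any start of the gene, and the widest was used. A peak that shared no base with the other list was called lost or gained. Fingers were counted as C2H2 patterns in translated canonical coding sequences from the genome. The overlap and coverage steps were tested on simulated data. Python 3.11.15, NumPy 2.4.6, SciPy 1.17.1, Biopython 1.88 and Matplotlib 3.10.9 were used.

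The ZNF genes and lists were chosen with earlier results of these data known. Named were genes with a start-site peak in 1 list only, those highest in peak width, lost or gained peaks, covered exon bases or fingers, 14 genes of known role and 12 corepressors. Other genes named, and the printed exon stretches, were chosen after their values were seen. Alternatives covered the start window, starts per gene, overlap, exon, minimum peak width, cluster gap and gene list. Other assays of the study were not used here.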

Additional observations from a re-analysis of the deposited data

How the results depend on the processing

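Of 38 alternatives chosen at the outset, 25 left the value within its counting interval, or within 1.5 times of a count, and 13 moved it. The rule was strict for coverage, where 14.2% to 14.0% counted as moved. It was loose for counts, where a fall from 216 to 172 genes with a cadmium start-site peak did not. The tally is therefore no measure of robustness. Counting only peaks of at least 1000 bp raised the genes with a start-site peak in the control list only from 2 to 30 and in the cadmium list only from 0 to 2, moved the lost peaks of gene bodies from 44 to 74 and the gained from 10 to 6, and lowered exon coverage from 14.2% to 12.2% in the control list and from 6.56% to 4.98% in the cadmium list. Narrow peaks thus made up part of the peaks shared at starts. A window of 500 bp, or 1 start per gene, left 1 gene with a start-site peak in the control list only. With at least 50% of a peak required to overlap, 114 gene-body peaks were lost and 21 gained. Exon coverage in the control list was 14.0% with the longest coding exon and 13.8% for bases over 1 kb from every start, where cadmium coverage was 6.14%. In each of these settings control coverage of the exon stayed above cadmium coverage. Of 3 alternatives for the lost share of exon peaks, added after seeing the data, 2 moved it from 53.1%, to 73.9% with peaks of at least 1000 bp (49.4% over all genes) and to 34.8% without the ZNF653 to ZNF791 cluster. No paired analysis was possible because the replicates were merged before peak calling, and for the same reason no replicate could be left out. The depth of each library, which limits how far a missing peak can be read as missing binding, is unknown from the lists.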

Other observations

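C2H2 genes of chromosome 19 with other symbols are given here for comparison. Of the 15 genes named ZFP, ZSCAN, ZIM or ZIK, 9 had a start-site peak in both lists (60.0%, beside 70.2% of all genes and 87.8% of the ZNF genes) and 6 in neither, among them ZSCAN4, known from early embryos, and the imprinted gene ZIM2. The others without one were ZSCAN5B, ZSCAN5C, ZIM3 and ZSCAN1. No gene of this group had a peak in 1 list only, and the difference from the ZNF genes was not tested.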
